A study of Mus musculus with 6 samples.

Results

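The genes described here are Atf4 and 9 genes that ATF4 or amino acid shortage is known to induce: Phgdh, Psat1, Psph, Shmt2, Mthfd2, Asns, Trib3, Chac1 and Sesn2. They are 10 of 17739 gene symbols in the table, and all 10 were among the 9767 genes with enough signal to be tested. They were chosen because several of them were lower in the knockout, so their differences between genotypes are given as a description, with no test. RNA was sequenced from mammary epithelial organoids, which are fragments of the epithelium freed by enzyme digestion, of FVB mice on day 1 of lactation. Both groups were of that strain, with 3 wild-type mice and 3 mice labelled Nmi-/-, a conditional knockout per the series' title. Nmi (N-Myc interactor) is a partner of Myc and STAT proteins that interferon induces. The Cre driver, the exons removed and the ages of the mice were not given in the sources used here; each library came from 1 mouse.

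ATF4 is a transcription factor of the integrated stress response. When a kinase such as GCN2 or PERK phosphorylates the translation factor eIF2, most protein synthesis falls while Atf4 mRNA is translated more, so the mRNA level of Atf4 is only a partial measure of the protein. ATF4 switches on genes for making and importing amino acids, among them the enzymes that build serine from a glycolytic intermediate. Serine then feeds one-carbon units into folate metabolism in the mitochondrion, for purine and thymidylate synthesis and for methylation. The lactating gland draws heavily on amino acids for milk protein.

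The letters TGATGNAA, on either strand, are the core of the C/EBP-ATF response element, through which ATF4 is known to act. They were searched in RefSeq promoter windows on GRCm38.p6, from 250 bases before to 50 bases after each annotated start. All 10 genes had a window, with 11 windows in all since Psat1 has a pair of starts. Asns, Trib3 and Chac1 held 1 match each, so 3 of 11 windows did, against 3.97% of all 32851 windows. The 3 matches are printed within 30 bases each, 5′ to 3′ in the sense of the gene, with the match in capitals, and the last pair carries it on the opposite strand.
Asns: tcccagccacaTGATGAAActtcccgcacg
Trib3: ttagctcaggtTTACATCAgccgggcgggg
Chac1: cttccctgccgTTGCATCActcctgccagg
The Asns stretch is chr6:7693214-7693243 on the minus strand, and its match begins 23 bases before the RefSeq start, inside an exon of the longer GENCODE transcript. The Trib3 stretch is chr2:152344028-152344057 on the minus strand, and its match begins at base 15 of the RefSeq transcript, before the GENCODE start. The Chac1 stretch is chr2:119351038-119351067 on the plus strand, outside the exons, and its match begins 193 bases before the start. The palindromes TGACGTCA (cAMP response element, in 1.79% of all windows) and CACGTG (E-box, in 7.15%) had 0 matches in the 11 windows.

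Psat1 and Mthfd2, the genes with the largest differences between genotypes, had no TGATGNAA match in these windows. For comparison with the stretches above, 100 bases of each are printed, from 150 to 51 bases before a RefSeq start, where GENCODE has no exon of the gene. They are chr19:15925110-15925209 for Psat1 and chr6:83317655-83317754 for Mthfd2, both on the minus strand. Both stretches lie between exons inside the GENCODE span of the gene, so they are not upstream of its longest transcript.
Psat1: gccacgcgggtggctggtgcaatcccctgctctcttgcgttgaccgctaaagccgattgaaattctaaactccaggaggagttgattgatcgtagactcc
Mthfd2: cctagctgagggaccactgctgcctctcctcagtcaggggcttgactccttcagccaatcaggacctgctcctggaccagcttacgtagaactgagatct
The missing match says only that these letters are not in these windows.

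Levels are in FPKM, fragment numbers scaled to gene length and library total. Nmi itself was lower in every knockout library, with 4.60, 2.82 and 2.32 FPKM in wild-type replicates 1 to 3 and 0.188, 0.547 and 0.564 FPKM in knockout replicates 1 to 3. Its log2 difference was -1.54 (SE 0.23) with an adjusted p of 0.372 (limma, Benjamini-Hochberg), and the exact permutation p of 0.1 is the smallest that 3 against 3 mice allow. In the comparison of the genotypes, limma called 0 of 9767 genes lower (0%) and 0 higher (0%) at an adjusted p under 0.05, with 130 genes (1.33%) at an unadjusted p under 0.05, of which 112 (1.15%) were lower and 18 (0.184%) higher. Most genes were lower in the knockout as deposited: 81.7% had a negative log2 difference, with a median of -0.21. The share of milk protein genes in all FPKM was lowest in wild-type replicate 1 (48.3%) and highest in knockout replicate 3 (76.9%), with 61.5% to 71.2% in the other 4 libraries. Csn2, which encodes beta-casein, was the most abundant of them, at 54110 to 125300 FPKM in wild type against 91280 to 142400 FPKM in the knockout. Of 20 milk protein genes 0 passed (0 at an unadjusted p under 0.05, limma) and 2 had a negative log2 difference, with a median of 0.33. Since FPKM is a share of the library, values are also given after trimmed-mean rescaling, which sets libraries on a scale where the bulk of genes does not differ. The median of all genes was then 0.0072, and 48.6% of genes had a negative difference. On this scale limma again called 0 genes lower (0%) and 0 higher (0%), with 173 genes (1.77%) at an unadjusted p under 0.05, of which 77 (0.788%) were lower and 96 (0.983%) higher. The luminal keratins were abundant in every library, Krt18 at 719 to 1627 FPKM in wild type and 210 to 908 FPKM in the knockout, and Krt8 at 647 to 1515 and 198 to 983 FPKM. In bulk tissue, fewer cells of a type and less RNA per cell cannot be told apart.

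The levels of the 10 genes, which FPKM gives per length, fell into an order that held in all 6 libraries at its ends and not in its middle. Atf4 was the most abundant, with a wild-type mean of 237 ± 58.7 FPKM (SD, n = 3), and Asns came next with 63.0 ± 22.6 FPKM. Psat1, Chac1 and Trib3 followed at 24.1, 23.7 and 23.3 FPKM, less far apart than their spread: Psat1 exceeded Chac1 in 1 of the 6 libraries, and Chac1 exceeded Trib3 in 3. Mthfd2 (17.4 FPKM) lay below Trib3 in 6 of 6 libraries. Shmt2 (12.2 FPKM) lay below Mthfd2 in 4 of 6 and above Sesn2 (10.3 FPKM) in 4 of 6. Phgdh (7.19 FPKM) lay below Sesn2, and Psph (2.08 FPKM) below Phgdh, in 6 of 6 libraries.

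**Figure D1:**
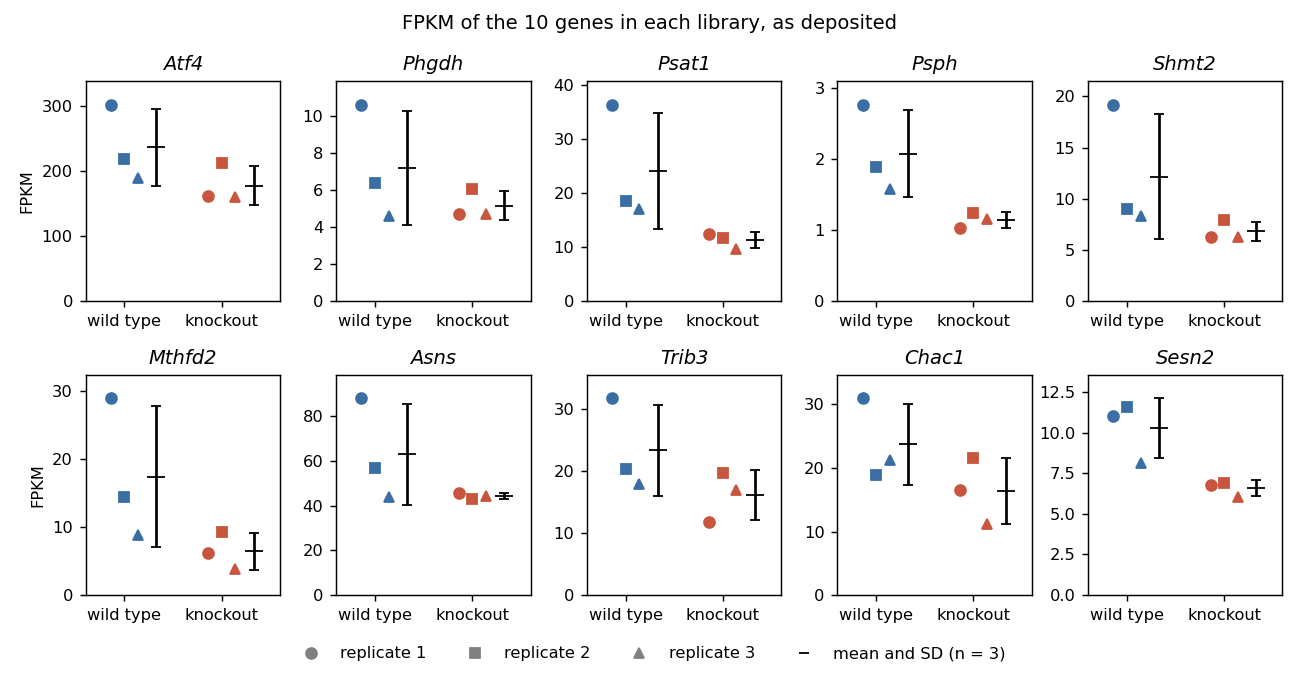
FPKM of each of the 10 genes (vertical axes from 0, separate for each gene) in the 3 wild-type libraries (blue) and the 3 knockout libraries (red), with the mean and SD of each genotype in black. Wild-type replicate 1 is the highest library for 9 genes, all but Sesn2, and for Psat1, Psph, Shmt2 and Sesn2 the knockout libraries all lie below the wild-type libraries.

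Atf4 (GRCm38, chr15:80255184-80257541, plus strand) had 302, 219 and 189 FPKM in wild-type replicates 1, 2 and 3 and 162, 212 and 160 FPKM in knockout replicates 1, 2 and 3. Knockout replicate 2 lay above wild-type replicate 3, so the groups overlapped. The means were 237 ± 58.7 and 178 ± 29.5 FPKM (SD, n = 3 each), and the log2 difference, knockout minus wild type on the log2(FPKM + 1) scale, was -0.39 (SE 0.31). It was -0.13 (SE 0.19) after rescaling and -0.20 without wild-type replicate 1. Relative to the median of all genes, the difference as deposited was -0.19.

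Of the 3 enzymes of serine synthesis, the second and the third differed more than the first. Phgdh (chr3:98313170-98339990, minus strand), which oxidises a glycolytic intermediate and opens the pathway, had 10.6, 6.37 and 4.61 FPKM in wild-type replicates 1 to 3 and 4.70, 6.03 and 4.73 FPKM in knockout replicates 1 to 3. All 3 knockout libraries lay inside the wild-type range. The means were 7.19 ± 3.08 and 5.16 ± 0.761 FPKM (SD, n = 3 each), and the log2 difference was -0.35 (SE 0.28). It was -0.069 without wild-type replicate 1 and -0.59 without wild-type replicate 3. Phgdh has 7 processed pseudogenes with up to 98.7% identity over most of its transcript, so its reads may have been split among copies, and its values are uncertain.

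Psat1 (chr19:15904678-15947337, minus strand), the aminotransferase of the next step, had 36.4, 18.7 and 17.2 FPKM in the wild-type libraries and 12.6, 11.7 and 9.72 FPKM in the knockout libraries, in the order of the replicates. Every knockout library lay below every wild-type library, and the knockout mean was 47.1% of the wild-type mean (24.1 ± 10.7 against 11.3 ± 1.46 FPKM, SD, n = 3 each). The log2 difference of Psat1 was -0.95 (SE 0.31), -0.70 (SE 0.20) after rescaling and -0.62 without wild-type replicate 1. After rescaling the groups remained apart, at 17.1 to 27.5 against 10.8 to 13.3 FPKM. Psph (chr5:129765558-129787449, minus strand), the phosphatase that releases serine, had 2.77, 1.89 and 1.58 FPKM in the wild-type libraries and 1.03, 1.24 and 1.16 FPKM in the knockout libraries. The groups were apart here too, with means of 2.08 ± 0.616 and 1.14 ± 0.108 FPKM (SD, n = 3 each). The log2 difference of Psph was -0.51 (SE 0.20), -0.33 (SE 0.14) after rescaling and -0.35 without wild-type replicate 1. Psph shares 452 annotated bases with Cct6a on the opposite strand. The strand setting of the authors' counting is not known here, so their reads may not be told apart, as for 32 bases of Shmt2 and Ndufa4l2 and 556 of Psat1 and the pseudogene Gm3329. On the same strand, where no strand setting separates reads, Mthfd2 shares 2799 bases with Gm43890 and Sesn2 6089 with Gm12981.

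Of the enzymes of the mitochondrial folate pathway, Mthfd2 had the widest range between libraries of the 10 genes. Shmt2 (chr10:127517123-127522444, minus strand), which takes a one-carbon unit from serine and leaves glycine, had 19.2, 9.02 and 8.31 FPKM in wild-type replicates 1 to 3 and 6.27, 7.91 and 6.27 FPKM in knockout replicates 1 to 3. The groups were apart by a small gap, with means of 12.2 ± 6.09 and 6.82 ± 0.945 FPKM (SD, n = 3 each), and wild-type replicate 1 held 2.22 times the mean of the other wild-type libraries. The log2 difference of Shmt2 was -0.67 (SE 0.31), and it was -0.31 without wild-type replicate 1. After rescaling the groups overlapped, since knockout replicate 3 (8.60 FPKM) then exceeded wild-type replicate 2 (8.28 FPKM).

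Mthfd2 (chr6:83305691-83325908, minus strand), the dehydrogenase and cyclohydrolase of the next step, had 28.9, 14.4 and 8.84 FPKM in the wild-type libraries and 6.15, 9.23 and 3.87 FPKM in the knockout libraries, a range of 7.48-fold between the highest and the lowest library. As deposited, knockout replicate 2 lay just above wild-type replicate 3. After rescaling the groups were apart, at 9.64 to 21.8 against 5.30 to 8.50 FPKM. The means as deposited were 17.4 ± 10.4 and 6.42 ± 2.69 FPKM (SD, n = 3 each), the latter being 36.9% of the former. The log2 difference of Mthfd2 was -1.22 (SE 0.40), the lowest of the 10 genes, -0.99 (SE 0.29) after rescaling and -0.80 without wild-type replicate 1. Of all genes tested, 0.0921% had a difference as low or lower as deposited and 0.102% after rescaling. For Psat1 these shares were 0.502% and 0.655%. Since the genes were chosen on this contrast, the shares give their ranks only and nothing is read from them.

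Asns (chr6:7675169-7693254, minus strand), which makes asparagine from aspartate and glutamine, had 88.0, 56.7 and 44.1 FPKM in wild-type replicates 1 to 3 and 45.8, 43.0 and 44.3 FPKM in knockout replicates 1 to 3. All 3 knockout libraries lay close to wild-type replicate 3, so the groups overlapped. The means were 63.0 ± 22.6 and 44.4 ± 1.41 FPKM (SD, n = 3 each), and the log2 difference was -0.44 (SE 0.30). It was -0.17 without wild-type replicate 1 and -0.66 without wild-type replicate 3.

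Of the 3 stress response genes, Sesn2 was the one whose groups did not overlap. Sesn2 (chr4:132492032-132510501, minus strand), a sensor of leucine that restrains the growth kinase mTORC1, had 11.04, 11.6 and 8.15 FPKM in the wild-type libraries and 6.77, 6.93 and 6.03 FPKM in the knockout libraries. The means were 10.3 ± 1.84 and 6.58 ± 0.482 FPKM (SD, n = 3 each), and the log2 difference was -0.56 (SE 0.23), -0.32 (SE 0.15) after rescaling and -0.50 without wild-type replicate 1. Sesn2 was also the gene that was not highest in wild-type replicate 1.

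Trib3 (chr2:152337422-152344032, minus strand), a pseudokinase that feeds back on ATF4, had 31.6, 20.2 and 17.95 FPKM in the wild-type libraries and 11.8, 19.7 and 16.9 FPKM in the knockout libraries. Its log2 difference was -0.49 (SE 0.30), -0.26 without wild-type replicate 1 and -0.29 when knockout replicate 1 was left out. Chac1 (chr2:119351229-119354381, plus strand), which breaks down glutathione, had 30.9, 18.9 and 21.3 FPKM in the wild-type libraries and 16.5, 21.6 and 11.2 FPKM in the knockout libraries. Its log2 difference was -0.52 (SE 0.30), -0.32 without wild-type replicate 1 and -0.28 when knockout replicate 3 was left out. For Trib3 and Chac1 the groups overlapped, both as deposited and after rescaling.

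All 10 genes had a lower mean in the knockout, where 81.7% of all tested genes had a negative difference as deposited. After rescaling all 10 were still below 0, where 48.6% of all genes were. The knockout libraries lay below all wild-type libraries for 4 of the 10 genes (Psat1, Psph, Shmt2, Sesn2), against 374 of 9767 genes (3.83%). After rescaling the number was again 4 (Psat1, Psph, Mthfd2, Sesn2), against 334 genes (3.42%), while 284 genes (2.91%) and none of the 10 lay above. Since the 10 genes were chosen on this contrast, nothing can be read from these counts beyond the values. Without wild-type replicate 3 the count was 9 of 10 and without knockout replicate 2 it was 8 of 10, where 2602 and 2755 of all genes were then apart in this direction. Without knockout replicate 1 it was 4 of 10, with 943 of all genes. The median log2 difference of the 10 genes was -0.51, which is -0.30 relative to the median of all genes, and -0.29 after rescaling. Relative to all genes it ranged from -0.43 to -0.22 when 1 library was left out.

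**Figure D2:**
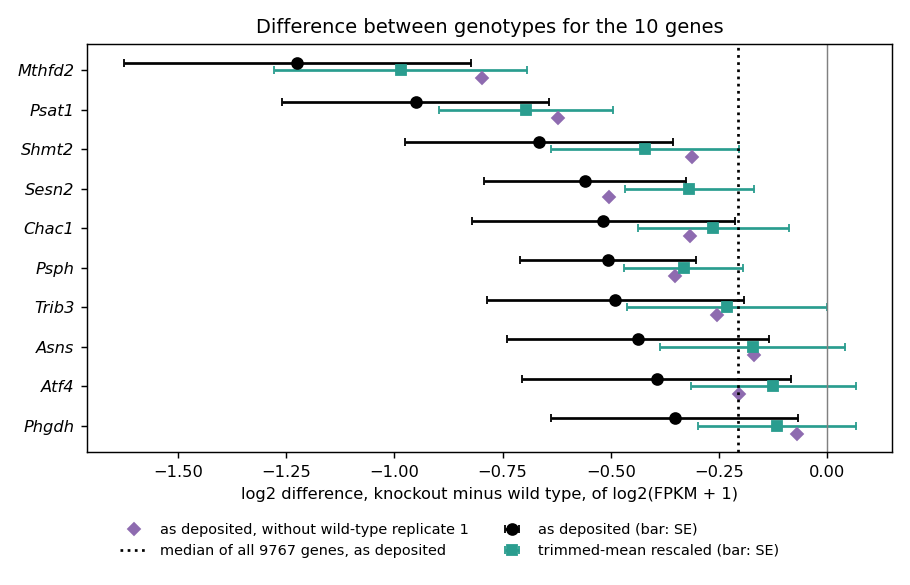
Log2 difference between knockout and wild type (horizontal axis, log2(FPKM + 1) scale) for each of the 10 genes: as deposited with its SE in black, after trimmed-mean rescaling with its SE in green, and as deposited without wild-type replicate 1 in purple. All points lie below 0, from -1.22 for Mthfd2 as deposited to -0.069 for Phgdh without wild-type replicate 1, and the dotted line marks the median of all genes at -0.21.

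As deposited, wild-type replicate 1 lay far above wild-type replicates 2 and 3. For the wild-type replicates 1 to 3 the mean of the 10 genes, on the log2(FPKM + 1) scale centred per gene, was 0.80, 0.18 and -0.067. For the knockout replicates 1 to 3 it was -0.35, -0.10 and -0.46. The median of all tested genes, centred likewise, was 0.33, 0.10, -0.10, -0.058, 0.093 and -0.36 in the same order. The 10 genes thus stood furthest above that median in wild-type replicate 1 and furthest below it in knockout replicate 1. After rescaling their mean was 0.43, 0.070 and 0.049 for wild type and -0.29, -0.20 and -0.057 for the knockout. The groups did not overlap on this scale, but the 10 genes were chosen on this contrast, so nothing is read from that. The milk protein share was 48.3%, 61.5% and 71.2% for the wild-type replicates 1 to 3 and 67.5%, 63.8% and 76.9% for the knockout replicates 1 to 3. As deposited, the library with the least milk RNA had the highest mean of the 10 genes. The library with the most had the lowest. After rescaling the lowest mean was that of knockout replicate 1 (-0.29), while knockout replicate 3, with the most milk RNA, had -0.057. The part of milk load in the differences was not tested beyond the values that follow.

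**Figure D3:**
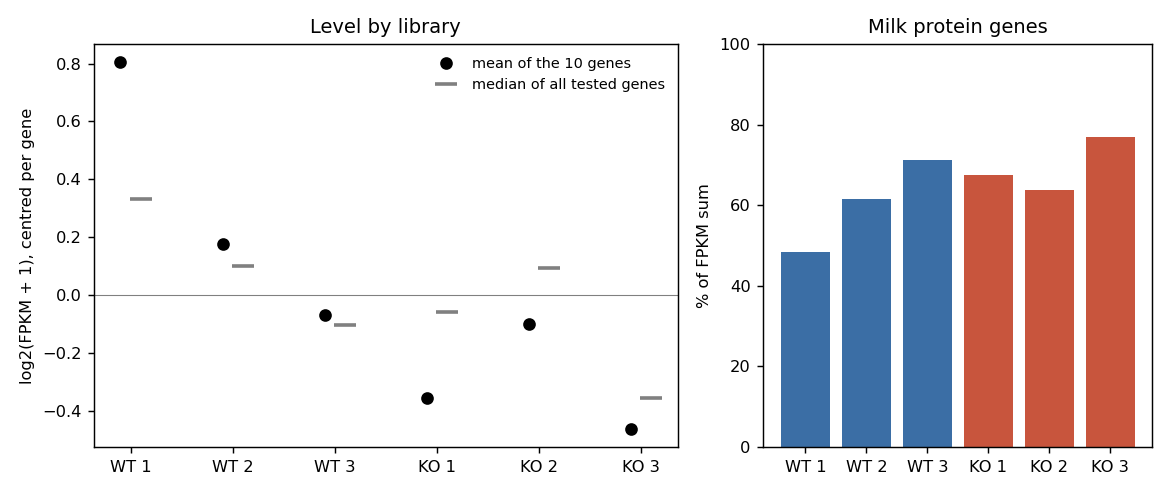
Left: mean of the 10 genes (black points) and median of all tested genes (grey bars) in each library, on the log2(FPKM + 1) scale centred per gene, with wild-type (WT) and knockout (KO) replicates on the horizontal axis. Right: share of the FPKM sum in 20 milk protein genes, in percent. The mean of the 10 genes is highest (0.80) in wild-type replicate 1, where the milk share is lowest (48.3%).

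Libraries of similar milk share but different genotype were set side by side. Wild-type replicate 2 (61.5% milk protein) and knockout replicate 2 (63.8%) had a median log2 ratio of 0.0013 over all tested genes. Between these libraries 9 of the 10 genes were lower in the knockout, all but Chac1, with a median log2 ratio of -0.30. Wild-type replicate 3 (71.2%) had more milk RNA than knockout replicate 1 (67.5%). Of the 10 genes 8 were lower in the latter, all but Phgdh and Asns, with a median log2 ratio of -0.38 against 0.043 over all genes. Against knockout replicate 2, wild-type replicate 3 was higher for 5 of the 10 genes, with a median log2 ratio of -0.0083 against 0.20 over all genes. After rescaling, 9, 10 and 9 of the 10 genes were lower in the knockout library of these pairs, in the order given. Wild-type replicate 2 beside knockout replicate 1 had 10 genes lower, and 9 after rescaling. Wild-type replicate 3 beside knockout replicate 3 had 8 lower, and 6 after rescaling. Their median log2 ratios were -0.55 and -0.42, against -0.16 and -0.24 over all genes. These are single libraries, chosen after their values were seen. The 10 genes were chosen because several were lower in these knockout libraries, so nothing is read from these counts and ratios. With the milk share as a covariate, also added after the data were seen, the log2 difference was -0.58 (SE 0.20) for Psat1, -0.57 (SE 0.17) for Mthfd2, -0.42 (SE 0.17) for Sesn2 and -0.34 (SE 0.16) for Psph. It was -0.13 (SE 0.21) for Atf4 and 0.00012 (SE 0.18) for Phgdh. For Shmt2 it was -0.28 (SE 0.21), and for Asns, Trib3 and Chac1 it was -0.15 (SE 0.22), -0.25 (SE 0.25) and -0.20 (SE 0.23).

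Ratios between genes of 1 library do not depend on how the libraries are scaled. Divided by Atf4, 4 of the other 9 genes lay below all wild-type libraries in every knockout library, and 5 overlapped. Of the 9766 tested genes besides Atf4, 45 (0.461%) lay below on this scale and 774 (7.93%) above. Since the genes were chosen on this contrast, nothing is read from that count. Psat1 was 0.121, 0.0853 and 0.0909 times Atf4 in wild-type replicates 1 to 3 and 0.0775, 0.0554 and 0.0608 times in knockout replicates 1 to 3. For Mthfd2 the ratio to Atf4 was 0.0956, 0.0660 and 0.0467 against 0.0379, 0.0436 and 0.0242. The knockout mean of the ratio was 65.3% of wild type for Psat1, 50.7% for Mthfd2, 74.4% for Psph and 77.5% for Shmt2. The ratios of Asns (97.3%), Trib3 (93.0%), Chac1 (90.9%), Phgdh (98.4%) and Sesn2 (84.6%) to Atf4 overlapped between genotypes. The ratios were chosen after the values were seen and were not tested.

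**Figure D4:**
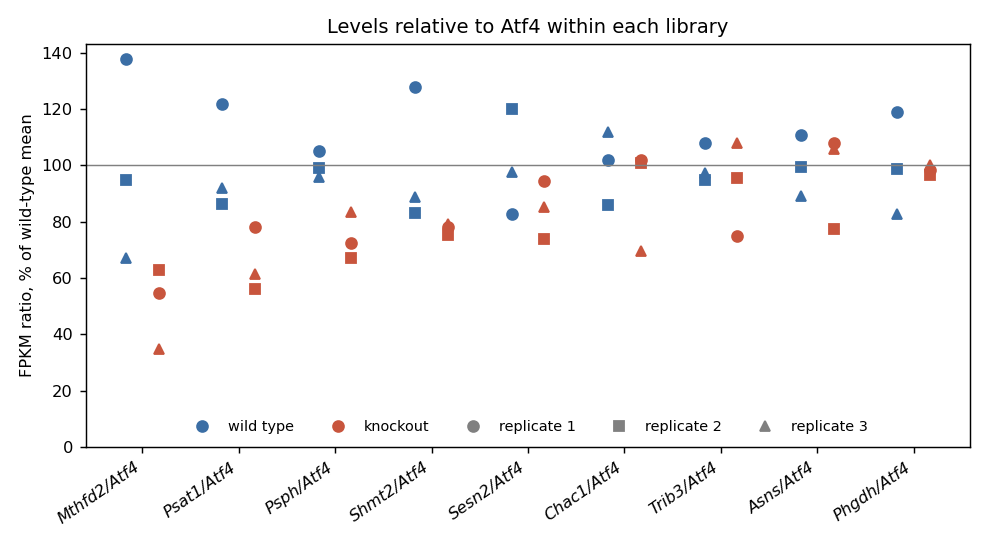
FPKM of each gene divided by that of Atf4 in the same library, in percent of the wild-type mean of the ratio (vertical axis from 0), for wild-type (blue) and knockout (red) libraries, with the replicate given by the symbol. Genes are ordered by the knockout mean, from Mthfd2 (50.7%) to Phgdh (98.4%), and the genotypes do not overlap for Mthfd2, Psat1, Psph and Shmt2.

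Ratios between the serine enzymes are given as a description, with no test. The genes were chosen on this contrast, so nothing is read from groups being apart. The share of all genes apart after division by Phgdh was not computed. The ratio of Psat1 to Phgdh was 3.44, 2.93 and 3.73 for wild-type replicates 1 to 3 and 2.67, 1.95 and 2.06 in knockout replicates 1 to 3, so the groups were apart (3.37 ± 0.406 against 2.22 ± 0.390, SD, n = 3 each). The ratio of Psph to Phgdh was also lower in every knockout library, at 0.301 ± 0.0409 against 0.223 ± 0.0210. Both ratios carry the uncertainty of Phgdh. The ratio of Psat1 to Psph overlapped, with a knockout mean of 88.7% of the wild-type mean.

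The cytosolic counterparts of the folate enzymes overlapped between genotypes, and their differences from Mthfd2 were not tested. Shmt1, which acts in the cytosol, had 5.72 ± 1.07 FPKM in the wild-type and 5.31 ± 0.758 FPKM in the knockout libraries (SD, n = 3 each). Mthfd1, the cytosolic trifunctional enzyme, had 2.55 ± 0.622 and 3.29 ± 1.47 FPKM. Mthfd2l, the mitochondrial paralogue of Mthfd2, had 1.33 ± 0.804 and 1.02 ± 0.0724 FPKM. Mthfd1l, the mitochondrial relative of Mthfd1, had 1.25, 0.218 and 0.221 FPKM in the wild-type libraries and 0.161, 0.290 and 0.1701 FPKM in the knockout libraries, so its lower mean rested on wild-type replicate 1. The ratio of Mthfd2 to Mthfd2l was lower in every knockout library, at 13.3 ± 3.61 against 6.20 ± 2.25 (SD, n = 3 each). Nothing is read from that, since Mthfd2 was chosen on this contrast and no share of all genes was computed for this ratio. The ratio of Mthfd2 to Mthfd1 overlapped, at 7.30 ± 4.63 against 2.34 ± 1.40. The ratios of Mthfd2 to Mthfd1l and of Shmt2 to Shmt1 also overlapped, with knockout means of 71.6% and 61.9% of wild type.

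Among 30 other known ATF4 targets, 29 were tested and 0 passed the adjusted threshold in either direction (limma). At an unadjusted p under 0.05 there were 4 of 29, against 1.33% of all genes. Groups were apart for 4 of 29, all lower, against 3.83% of all genes. A negative log2 difference was found for 23 of 29, against 81.7% of all genes. The list was chosen with earlier results of these data known, so nothing is read from these counts. The median log2 difference was -0.34 against -0.21 for all genes, and -0.082 against 0.0072 after rescaling. The groups were apart for the glycine transporter gene Slc6a9, at 12.1, 2.61 and 2.74 FPKM in the wild-type libraries and 2.14, 1.92 and 1.28 FPKM in the knockout libraries. Its log2 difference was -1.03 (SE 0.42), and -0.41 without wild-type replicate 1. The other 3 were Vldlr, a lipoprotein receptor (-0.47, SE 0.21), Cebpb, a transcription factor that pairs with ATF4 (-0.43, SE 0.28), and the glutamine transporter gene Slc38a2 (-0.31, SE 0.26). Among the wild-type libraries, Cebpb was lowest in replicate 1, at 104 FPKM against 154 and 120 FPKM. Of the most abundant targets, Nupr1, a stress-induced chromatin protein, had 391 ± 207 and 216 ± 78.1 FPKM, and Slc3a2, the heavy chain of amino acid exchangers, had 138 ± 28.2 and 103 ± 15.0 FPKM (SD, n = 3 each).

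The cytosolic tRNA synthetases, many of them ATF4 targets, had 0 of 20 past the threshold (0 at an unadjusted p under 0.05) and a median log2 difference of -0.34, or -0.088 after rescaling. Groups were apart for 1 of 20, Tars, the threonine enzyme, at 28.3 ± 11.7 and 17.7 ± 2.02 FPKM, near the share of 3.83% among all genes. Gars, the glycine enzyme, had 52.4 ± 25.8 and 28.2 ± 9.71 FPKM, Nars, the asparagine enzyme, 65.0 ± 20.6 and 46.2 ± 6.18 FPKM, and Qars, the glutamine enzyme, 38.7 ± 4.84 and 35.2 ± 6.67 FPKM (SD, n = 3 each).

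Upstream of ATF4, 0 of 16 genes of eIF2, its kinases, its exchange factor and its phosphatases passed (0 at an unadjusted p under 0.05), with a median of -0.20, or 0.031 after rescaling. Groups were apart for 2 of 16, both lower, against 3.83% of all genes. They were Eif2b2, a subunit of the exchange factor (10.1 ± 1.96 and 7.39 ± 1.33 FPKM), and Impact, an inhibitor of GCN2 (3.39 ± 0.314 and 2.56 ± 0.569 FPKM). Ppp1r15a, the stress-induced subunit of the eIF2 phosphatase, was also counted among the other ATF4 targets. It had 29.1 ± 5.93 and 28.2 ± 4.77 FPKM. Eif2s3x had 29.0 ± 4.79 and 25.01 ± 6.41 FPKM, and Eif2s2 26.4 ± 10.2 and 19.5 ± 3.82 FPKM (SD, n = 3 each).

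The other folate and one-carbon enzymes had 0 of 24 past the threshold (0 at an unadjusted p under 0.05) and a median log2 difference of -0.11, above that of all genes. After rescaling the median was 0.065, so its sign depended on the scaling. Groups were apart for 1 of 24, Slc25a32, which carries folate into the mitochondrion, at 1.68 ± 0.507 and 1.15 ± 0.142 FPKM, near the 3.83% of all genes. Folr1, a folate receptor, had 101 ± 31.5 and 143 ± 72.5 FPKM, Mat2a, which makes S-adenosylmethionine, 44.4 ± 18.02 and 29.8 ± 9.38 FPKM, and Dld, a subunit of the glycine cleavage system, 28.9 ± 5.89 and 24.5 ± 1.01 FPKM (SD, n = 3 each).

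Genes of serine use had 0 of 8 past the threshold (0 at an unadjusted p under 0.05) and a median of -0.21, or 0.027 after rescaling. Serinc3, Serinc1 and Serinc2, serine incorporator proteins, had wild-type means of 189, 65.7 and 54.0 FPKM and knockout means of 170, 47.7 and 36.7 FPKM. Enzymes of other amino acids had 0 of 14 past the threshold (0 at an unadjusted p under 0.05), with a median of -0.13, or 0.11 after rescaling. Groups were apart for 1 of 14, against 3.83% of all genes: Pycrl, of proline synthesis (2.46 ± 0.407 and 1.91 ± 0.0763 FPKM). The glutamine synthetase gene Glul had 52.8 ± 17.6 and 51.4 ± 14.8 FPKM, and the transaminase genes Got1 and Got2 had 33.2 ± 15.9 and 41.3 ± 11.3 FPKM and 27.3 ± 5.90 and 23.0 ± 4.27 FPKM (SD, n = 3 each). Got1 was lowest in wild-type replicate 1, at 15.4 FPKM against 28.4 to 49.5 FPKM in the other libraries.

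The other arms of the unfolded protein response had 0 of 20 genes past the threshold and 0 with groups apart (0 at an unadjusted p under 0.05), with a median of -0.15, or 0.10 after rescaling. The chaperone gene Hspa5 had 320 ± 107 and 241 ± 17.6 FPKM, the chaperone gene Calr 262 ± 82.5 and 234 ± 46.2 FPKM, and the transcription factor gene Xbp1 177 ± 22.4 and 183 ± 57.5 FPKM (SD, n = 3 each). Of 10 tested targets of p53, which also induces Sesn2, 0 passed and 0 had groups apart (0 at an unadjusted p under 0.05), with a median of -0.29, or -0.038 after rescaling. Perp had 50.2 ± 22.5 and 35.2 ± 14.8 FPKM, Trp53inp1 34.8 ± 5.93 and 35.1 ± 9.80 FPKM, and Cdkn1a 28.7 ± 11.1 and 22.6 ± 11.8 FPKM.

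**Figure D5:**
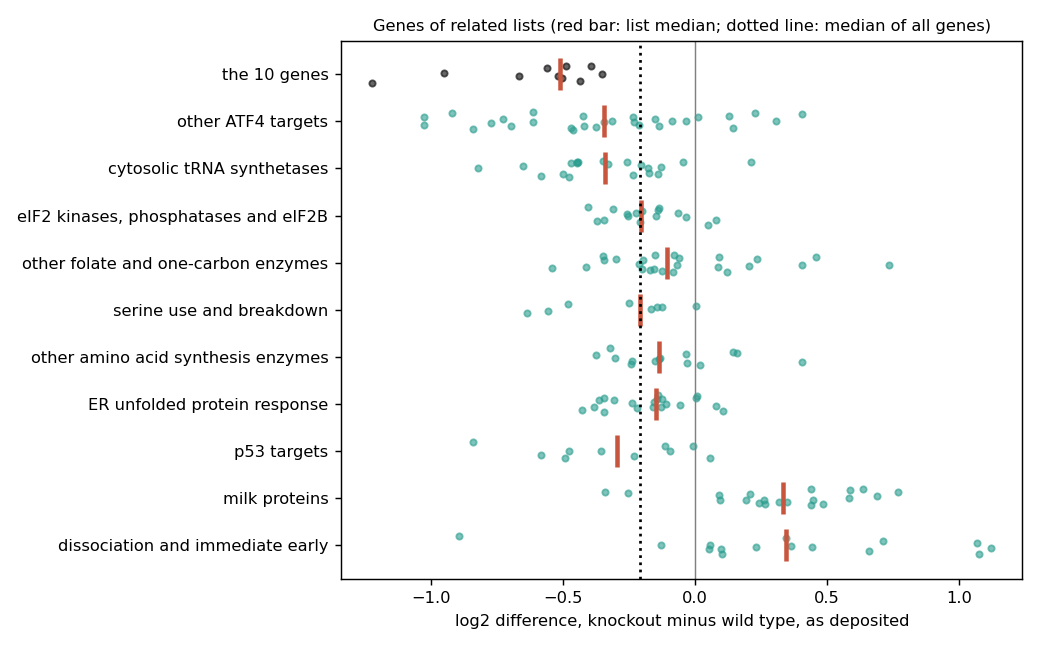
Log2 difference between knockout and wild type, as deposited (horizontal axis), for each tested gene of the 10 genes (black) and of 10 related lists (green), with the median of each list as a red bar and the median of all genes (-0.21) as a dotted line. The medians run from -0.51 for the 10 genes, which were chosen on this contrast, to 0.35 for dissociation and immediate early genes.

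Markers of other cells moved with the libraries too, and their part in the differences of the 10 genes was not tested. The summed FPKM of 7 luminal markers was 2774 to 5697 in wild type and 1116 to 3618 in the knockout, with 6 of 7 lower in the knockout mean. The luminal markers had a median log2 difference of -0.80, lower than that of the 10 genes, or -0.53 after rescaling, and -0.019 without both wild-type replicate 1 and knockout replicate 3. Their groups overlapped for all 7, with 0 at an unadjusted p under 0.05 (limma). Krt18 had 52.1% and Krt8 57.5% of the wild-type mean in the knockout. The myoepithelial gene Acta2 had 354 ± 119 and 344 ± 329 FPKM and Krt14 110.1 ± 42.4 and 85.6 ± 47.5 FPKM (SD, n = 3 each). Among the 6 myoepithelial markers all log2 differences were below 0, with a median of -0.29, or -0.027 after rescaling. Of the 6, 1 had an unadjusted p under 0.05 (limma), against 1.33% of all genes. That was Trp63, whose groups were also apart, against 3.83% of all genes in this direction. It had 9.22, 3.29 and 2.94 FPKM in the wild-type libraries and 2.25, 2.81 and 1.81 FPKM in the knockout libraries (adjusted p = 0.768, limma). The summed FPKM of the 6 myoepithelial markers was 375 to 777 and 293 to 1063 FPKM (5 of 6 lower), for 6 endothelial markers 43.8 to 94.0 and 45.8 to 86.4 FPKM (4 of 6 lower), and for 6 fibroblast markers 22.7 to 52.1 and 32.2 to 59.1 FPKM (1 of 6 lower). The endothelial gene Cdh5 had 29.9 ± 8.22 and 26.9 ± 10.5 FPKM, and the fibroblast gene Col3a1 had 15.0 ± 6.61 and 17.5 ± 5.74 FPKM. The adipocyte sum, 212 to 672 and 157 to 441 FPKM (3 of 5 lower), was nearly all Fabp4, since the other 4 markers stayed under 1 FPKM. The immune sum was 7.20 to 7.33 and 4.71 to 6.62 FPKM (2 of 6 lower). It was nearly all Cd68, with the other 5 markers under 1 FPKM. The groups of Cd68 were apart (6.90 ± 0.0505 and 4.67 ± 1.19 FPKM), as were those of 3.83% of all genes in this direction. No marker in the table was at 0 in all libraries. Among 15 dissociation and immediate early genes 0 passed (1 at an unadjusted p under 0.05, limma, against 1.33% of all genes). Their median log2 difference was 0.35, or 0.61 after rescaling. The most abundant was Jund, at 197 ± 33.7 and 178 ± 9.38 FPKM, followed by the heat shock genes Hspa1b (161 ± 52.3 and 203 ± 66.2 FPKM) and Hspa1a (135 ± 69.2 and 204 ± 99.8 FPKM). Groups were apart for 2 of them, against 0.778% of all genes on the higher side: Jun (92.7 ± 15.7 and 126 ± 14.2 FPKM) and Zfp36 (68.3 ± 5.51 and 127 ± 81.0 FPKM, SD, n = 3 each), the latter with 220 FPKM in knockout replicate 3 alone.

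The genes whose pattern over the 6 libraries was most like the mean of the 10 genes were Nxt1, E2f5, Jmjd6, Nufip1 and Mrps22, with Pearson r from 0.993 to 0.997 on the log2(FPKM + 1) scale. Nxt1, a factor of mRNA export, had 8.11, 4.64 and 3.98 FPKM in the wild-type libraries and 3.20, 3.92 and 2.81 FPKM in the knockout libraries. E2f5, a transcription factor of the cell cycle, had 7.78, 5.26 and 4.46 against 3.42, 4.41 and 3.21 FPKM. High likeness was common, since the median r of all 9767 genes with that mean was 0.739. The 10 genes themselves had 0.857 to 0.985, but each is part of that mean, which raises its r. They were also chosen on the contrast of the genotypes, so their r is not comparable with that of other genes. All genes share the same libraries and their totals, so r is given as a description.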

How the data were processed

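RNA from mammary epithelial organoids of 6 mice (3 wild type, 3 Nmi knockout) was measured in 1 table of 17739 gene symbols. The authors deposited FPKM values; the submitters' processing notes name FastQC, TopHat, SAMtools and Cufflinks, with mm10 and GRCm38 as builds. Versions, strand setting and annotation were not given in the sources used here. The depth of the libraries is unknown, so precision is the spread between mice. Gapdh was listed at 0 to 0.0769 FPKM, so a low entry can be a failed estimate. Nothing pairs mice across genotypes; p-values measure the spread between these mice.

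The 9767 genes that reached 1 FPKM in 3 or more libraries were compared as log2(FPKM + 1), which understates changes of low genes, with limma 3.58.1 in R 4.3.3 (trended empirical Bayes, two-sided, Benjamini-Hochberg over all genes, threshold 0.05), and the fit was tested on simulated data. Trimmed-mean factors left out 30% of the log ratios and 5% of the mean levels at each end. The alternatives were a pseudocount of 0.1, no filter, 3 rescalings, libraries left out, and the milk share as a covariate. The members and lists were chosen with earlier results of these data known. The lists are not separate sets, since some genes stood in several. The other ATF4 targets shared Ppp1r15a with the eIF2 list, Herpud1 with the unfolded protein response and Gdf15 with the p53 targets. They shared Got1, Gpt2, Pycr1, Aldh18a1 and Cth with the enzymes of other amino acids. Named genes were the members, Nmi, the 3 most abundant genes and up to 4 with groups apart of each list (2 most abundant of marker lists) and the 5 most alike; ratio partners were added later. Coordinates came from RefSeq and GENCODE release 21, and copies from BLAST 2.17.0 at 95% identity over 50% of the transcript.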

Additional observations from a re-analysis of the deposited data

How the results depend on the processing

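The log2 difference of the 10 genes was below 0 in 129 of 130 values over 13 alternatives, Phgdh with the milk covariate (0.00012) being the exception. All 10 were lower when any 1 library was left out. The 10 genes were chosen on this contrast and the alternatives share libraries, so nothing is read from these counts. As deposited, 81.7% of all tested genes had a negative difference. Of the 130 values, 7 moved by at least the within-genotype SD of their gene. They were Chac1 at -0.081, Psat1 at -0.52 and Mthfd2 at -0.53 without both wild-type replicate 1 and knockout replicate 3, and Psph at -0.78 with a pseudocount of 0.1. Sesn2 moved under all 3 rescalings. It was at -0.32 with the trimmed mean, -0.37 with the sum outside milk genes and -0.33 with quantile normalization. The median of the 10 genes was -0.65 to -0.31 with 1 library left out. The number of genes past the adjusted threshold was 0 with any 1 library left out. It was 1 without both wild-type replicate 1 and knockout replicate 3 (Gm7367, higher at 1.87, adjusted p = 0.0317, limma, against 0.09 and 0.959 with all libraries). The number of genes with all knockout libraries lower was 640 without a filter, 610 without both end libraries and 432 to 2755 with 1 library left out, and of the 10 genes 4 to 9. These counts rest on fewer samples or more genes tested. Nmi ranged from -1.70 to -1.33 with 1 library left out. With a pseudocount of 0.1 it was -2.69, and its adjusted p ran from 0.169 to 1 over all alternatives.

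Several list medians changed with the scaling, in the order trimmed mean, sum outside milk genes and quantile. Other ATF4 targets had -0.082, -0.13 and -0.13. The eIF2 list had 0.031, -0.016 and 0.0071, and -0.016 with the milk covariate. Other folate enzymes had 0.065, 0.026 and 0.045, and -0.21 to 0.0064 with 1 library left out (0.0064 without wild-type replicate 1). Enzymes of other amino acids had 0.11, 0.070 and 0.083, with -0.021 without the end libraries and -0.020 with the milk covariate. The dissociation list had 0.61, 0.56 and 0.58, with -0.022 without the end libraries and 0.11 to 0.55 with 1 library left out. The cause of these changes was not tested. No paired analysis was possible because the labels give each mouse its own number and share none between genotypes. The depth of the libraries is unknown, so its limit cannot be given.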
